A study of Mus musculus with 9 samples.

Results

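The comparison described here sets 3 libraries of a Sin3a knockdown against 3 control libraries, 6 of the 9 libraries of the series, and covers all genes counted. Members were chosen by title: libraries titled Sin3a form the knockdown, and libraries titled T2SC form the control. The T2SC titles do not spell out their hairpin, and they were taken as the controls because, besides both knockdowns, the protocols describe only the non-targeting shScrambled line. All cells were mouse E14 embryonic stem cells, a line derived from the inner cell mass, grown on gelatin in medium with serum and leukaemia inhibitory factor (LIF). They carried a stable lentiviral pLKO.1 vector with a short hairpin RNA against Sin3a, against Fam60a or against no target, were selected with puromycin, and were passaged several times before harvest. The control cells thus also carried the vector and its selection. How many hairpins or clones stood behind each group was not given in the sources used here, so an effect of 1 hairpin and an effect of lowering its target cannot be told apart. The 3 remaining libraries, of the Fam60a knockdown, entered the model for their share in the estimate of the spread and are compared below only where they show how the Sin3a knockdown differs.

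Sin3a is a scaffold protein that binds no DNA sequence itself. It holds the histone deacetylases Hdac1 and Hdac2 together with further subunits and is brought to genes by DNA-bound repressors such as the Mxd proteins. Removal of acetyl groups from histones there is associated with lower transcription. In embryonic stem cells the complex is also found at active genes, and Sin3a is needed for the growth of these cells. Because total RNA was sequenced from bulk cultures, fewer cells of a type and less RNA per cell cannot be told apart in any result below.

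The Sin3a knockdown libraries held 6560637, 5511453 and 2607872 counted reads and the controls 6072157, 6896141 and 6631622. Levels are given as CPM, counts per 1000000 reads scaled by TMM, in the order of replicates 1, 2 and 3, and 3 reads amount to between 0.391 and 1.15 CPM over the 9 libraries. CPM values do not correct for gene length, so levels are compared between libraries and not between genes. Sin3a knockdown replicate 3 stood apart from the other libraries: it was the shallowest, held 90 mitochondrial reads against 6268 to 7118 elsewhere, and deviated with the base composition of genes. Genes were split into 5 classes by exon GC content. Within pair 3 the median log2 difference of knockdown minus control was -0.85 in the class lowest in GC and 0.45 in the highest. In the same classes it was 0.06 and -0.13 within pair 1 and 0.11 and -0.19 within pair 2. Counts of calls over all genes and over each list are therefore also given without this library. The labels call the 3 libraries of a group biological replicates but do not say whether they came from separate transductions, so p-values measure the spread between these libraries.

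**Figure D1:**
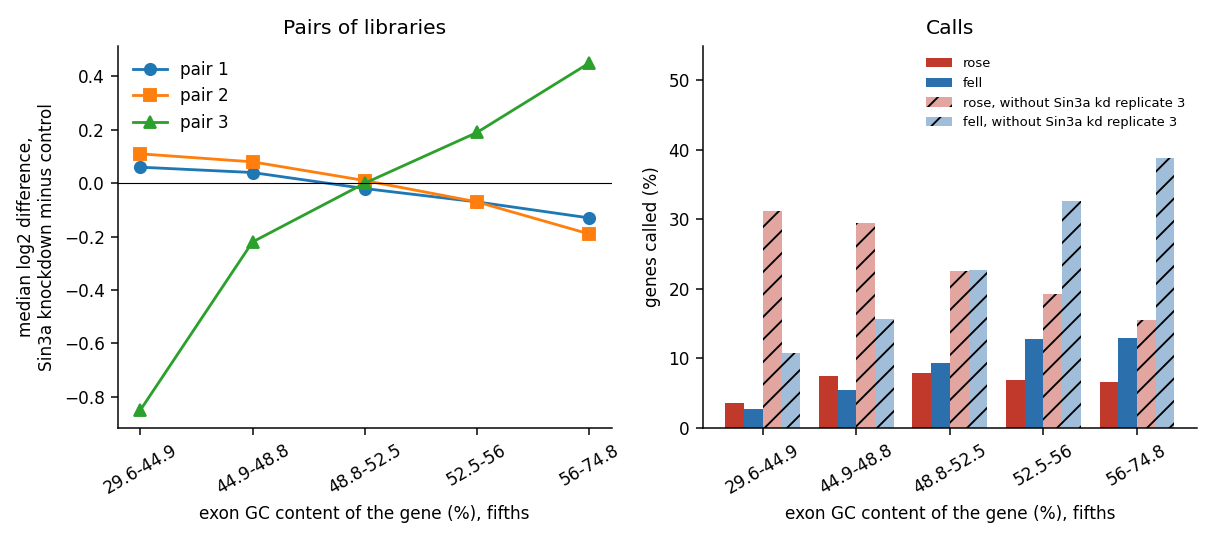
Left, the median log2 difference of Sin3a knockdown minus control library within each pair (lines) over 5 classes of genes by exon GC content (%, horizontal axis). Right, the share of each class called (%), which rose (red) or fell (blue) with all libraries (solid) and without Sin3a knockdown replicate 3 (hatched). Pair 3 climbs from -0.85 to 0.45 over the classes, against slopes of the opposite sign in pairs 1 and 2.

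Sin3a itself (ENSMUSG00000042557, GRCm38 chr9:57072040-57128366, plus strand) measured 131, 136 and 110.5 CPM in the knockdown, against 311, 281 and 268 CPM in the controls. All 3 knockdown libraries lay below all 3 controls. The log2 fold change was -1.19 ± 0.09 (SE, edgeR quasi-likelihood test, adjusted p = 0.0026), and it was -1.14 without Sin3a knockdown replicate 3. Against the Fam60a knockdown, which measured 227, 216 and 207 CPM of Sin3a, the level was also lower (log2 difference -0.79 ± 0.09, adjusted p = 0.0124). Markers of embryonic stem cells were present in every library, with the summed level of 10 of them between 1640 and 1750 CPM in the knockdown and between 1650 and 1850 CPM in the controls. Their edgeR adjusted p lay between 0.198 and 0.845. These sums and those of other cell types below are per 1000000 of all counted reads, without TMM. The alignments counted were free of marked duplicates, which caps the count of very abundant short genes. Reads of Pou5f1 were 857, 817 and 777 in the knockdown and 865, 927 and 894 in the controls, although knockdown replicate 3 was the shallowest library. The part of that cap in the levels of Pou5f1, the marker sums and the mitochondrial genes was not tested.

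Of 14465 genes tested, 916 rose and 1248 fell at a Benjamini-Hochberg adjusted p under 0.05, which is 6.33% and 8.63% of the genes tested. At least a 2-fold change was seen in 519 of the risen and 955 of the fallen genes, and at least an 8-fold change in 20 and 146. The fallen genes had a median of 5.14 CPM in the knockdown and 17.1 CPM in the controls. The risen genes had one of 52.0 CPM in the knockdown and 24.8 CPM in the controls, beside a median of 44.7 CPM over all genes tested in the controls. All 2164 called genes differed in the same direction in all 3 pairs, and in 2000 of them the libraries of the groups did not overlap. The calls came from a test on these same pairs, so both counts describe the calls and are no separate support for them. Over all genes tested the knockdown libraries lay wholly above the controls in 14.7% and wholly below in 18.5%.

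The number of calls depended on which libraries entered. Without Sin3a knockdown replicate 3, 3380 genes rose and 3595 fell of 14735 tested (47.3% called), and 2149 of the 2164 calls were also made there in the same direction, with 0 in the opposite one. Without another single library the count lay between 312 (without control replicate 1) and 2018 (without Fam60a knockdown replicate 3). It was 382 without control replicate 2, 637 without Sin3a knockdown replicate 1 and 668 without Sin3a knockdown replicate 2. Fitted on its own 6 libraries with the replicate number as a block, the comparison had 0 calls in edgeR, with 2906 genes at an unadjusted p under 0.05, and 739 calls without the block. With all 9 libraries and no block 3.91% of the genes rose and 6.28% fell. Of 267 named genes called with all 9 libraries, 79 were called in each of the 9 fits that left out 1 library, and all 267 kept their direction in every alternative. Of the 267, 264 were called without Sin3a knockdown replicate 3, all but Adgra2, Foxq1 and Sox17, and the fold of 10 of the 267 moved by over 1.5 times. Below, a call is said to hold throughout when it stood in all 9 of these fits.

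**Figure D2:**
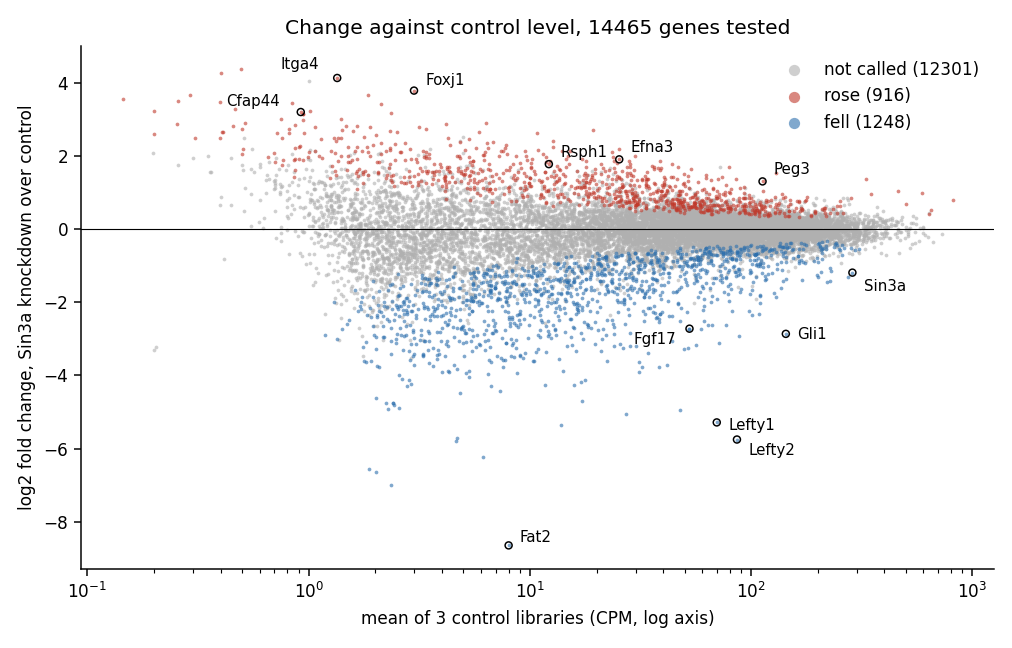
Log2 fold change of the Sin3a knockdown over the control (vertical axis) against the mean level in the 3 controls (horizontal log axis, CPM), 1 point per gene tested. There are 916 risen genes in red, 1248 fallen genes in blue, and circles mark named genes. Large falls reach into genes of over 50 CPM in the controls, such as Lefty1, Lefty2, Gli1 and Fgf17, while the largest rises lie at control levels of a few CPM or less. Fitted values of genes with almost no reads in 1 group, such as Fat2, depend on the prior count and are no measured fold.

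Among the subunits of the complex and the factors that recruit it, few transcripts other than Sin3a were called with all libraries, and more without Sin3a knockdown replicate 3. Of 26 SIN3-HDAC complex genes tested 1 rose and 1 fell, beside 6.33% and 8.63% of all genes tested. The median log2 fold change of the list was 0.01, against -0.03 over all genes. Without Sin3a knockdown replicate 3 the counts were 8 and 2, where 22.9% of all genes rose and 24.4% fell. The gene that rose was Ing2, whose protein reads trimethylated lysine 4 of histone H3 for the complex, with 72.7, 65.4 and 148 CPM in the knockdown and 43.8, 35.9 and 38.7 CPM in the controls. Knockdown replicate 3 was the highest library of Ing2, and without it the log2 fold change was 0.81 instead of 1.20 ± 0.26 (adjusted p = 0.0272). The call of Ing2 held in 2 of the 9 fits, those without replicate 3 of either knockdown, and was lost without any other single library (adjusted p up to 0.118). The paralog Sin3b measured 116, 117 and 247 CPM in the knockdown and 114, 119.7 and 123 CPM in the controls, where the excess lay in replicate 3. For Sin3b the log2 fold change was 0.35 ± 0.23, or 0.01 without that library (adjusted p = 0.347). Hdac1 had a log2 fold change of -0.02 ± 0.17 and Hdac2 one of -0.03 ± 0.10, and neither passed. Fam60a (Sinhcaf in GENCODE M21) measured 13.9, 14.3 and 18.7 CPM in the knockdown and 13.4, 14 and 13.1 CPM in the controls and did not pass (adjusted p = 0.559). Of 22 recruiting factors tested 1 rose and 0 fell, and without that library 9 and 3. The gene called with all libraries was Mxd4, a partner of Max that represses Myc targets and binds the SIN3 scaffold. Mxd4 measured 81.6, 70.2 and 115 CPM in the knockdown and 35.5, 33.4 and 32.5 CPM in the controls (log2 fold change 1.37 ± 0.17, or 1.17 without Sin3a knockdown replicate 3, adjusted p = 0.00628). All knockdown libraries of Mxd4 lay above all controls, and the call was lost in 1 of the 9 fits, without control replicate 1 (adjusted p up to 0.0507).

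The Nodal pathway had its largest change in the secreted inhibitors. Nodal and its relatives are ligands that signal through activin receptors and Smad2 or Smad3, and the Lefty proteins are their targets and feedback inhibitors. Lefty1 (GRCm38 chr1:180935022-180938400, plus strand) measured 1.83, 1.11 and 2.84 CPM in the knockdown, against 74.1, 64.8 and 70.8 CPM in the controls. Lefty2 (GRCm38 chr1:180893108-180899103, plus strand) measured 1.98, 1.67 and 0.812 CPM in the knockdown, against 105, 72.3 and 81.5 CPM in the controls. No knockdown library of either gene came near a control. Lefty1 held 12, 6 and 7 reads in the knockdown libraries and 455, 448 and 475 in the controls. The log2 fold change of Lefty1 was -5.29 ± 0.28, or -5.46 without Sin3a knockdown replicate 3 (adjusted p = 0.00209). The log2 fold change of Lefty2 was -5.75 ± 0.25, or -5.61 without that library (adjusted p = 0.000783), and both calls held throughout. Both genes were also lower than in the Fam60a knockdown (log2 difference -2.91 ± 0.28 for Lefty1, adjusted p = 0.0109, and -4.02 ± 0.25 for Lefty2, adjusted p = 0.00631).

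Of the other 30 Nodal pathway genes tested, 1 rose and 3 fell. With both Lefty genes 18.8% of the list was called, against 15% of all genes tested. The ligand Nodal itself measured 89.9, 94.1 and 98.3 CPM in the knockdown and 103, 108 and 88.8 CPM in the controls, with overlapping groups (log2 fold change -0.08 ± 0.14, adjusted p = 0.709). Tdgf1, the co-receptor Cripto, and the mediators Smad2, Smad4 and Foxh1 also failed to pass, with log2 fold changes of -0.06, 0.23, 0.06 and -0.52. Dand5, another secreted antagonist of Nodal, fell, with 3.35, 3.34 and 1.22 CPM in the knockdown and 9.61, 8.24 and 6.41 CPM in the controls (log2 fold change -1.59 ± 0.26, adjusted p = 0.0117). Gdf3, a ligand of the same family, fell less, with 73.9, 82.4 and 37 CPM in the knockdown and 114, 110.3 and 98.3 CPM in the controls (log2 fold change -0.78 ± 0.20, or -0.53 without Sin3a knockdown replicate 3, adjusted p = 0.0488). The call of Dand5 was lost without Sin3a knockdown replicate 1 and control replicates 1 and 2 (adjusted p up to 0.0735), while the call of Gdf3 held in 1 of the 9 fits. Fgf8, counted in this list and among the fibroblast growth factors, fell at a low level (0.610, 0.186 and 0.406 CPM in the knockdown, 2.44, 2.17 and 1.49 CPM in the controls, adjusted p = 0.042). The member that rose was Id1, a target of BMP signals that blocks basic helix-loop-helix factors. Id1 measured 90.4, 100.5 and 205 CPM in the knockdown and 58.3, 55.4 and 67 CPM in the controls, with knockdown replicate 3 the highest library. Its log2 fold change was 1.06 ± 0.22, or 0.73 without Sin3a knockdown replicate 3 (adjusted p = 0.0247), and the call held in 3 of the 9 fits.

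Hedgehog signalling genes fell without an exception among those called. In this pathway the receptor Ptch1 holds the transmembrane protein Smoothened inactive until a Hedgehog ligand binds, after which Gli factors activate targets that include Gli1 and Ptch1 themselves. Of 13 Hedgehog genes tested 0 rose and 5 fell, beside 6.33% and 8.63% of all genes tested. The median log2 fold change of the list was -0.42. Gli1 (GRCm38 chr10:127329882-127341974, minus strand) measured 18.4, 21.4 and 19.1 CPM in the knockdown, against 132, 154 and 145 CPM in the controls. The 3 knockdown libraries lay close together and far below the controls, and the log2 fold change was -2.86 ± 0.12, or -2.83 without Sin3a knockdown replicate 3 (adjusted p = 0.000783). The call of Gli1 held throughout. Gli2, the main activator of the pathway, measured 130.0, 138 and 71.9 CPM in the knockdown and 238, 230.0 and 216 CPM in the controls. Ptch1 measured 109, 105 and 66.6 CPM in the knockdown and 178, 184 and 163 CPM in the controls. Their groups did not overlap, with log2 fold changes of -1.05 ± 0.17 (adjusted p = 0.0115) and -0.92 ± 0.15 (adjusted p = 0.0114). The decoy receptor Hhip also fell, from few reads (log2 fold change -1.68 ± 0.42, adjusted p = 0.0425), in a call that held in 1 of the 9 fits. The call of Gli2 was lost without control replicate 1 (adjusted p up to 0.0639), and that of Ptch1 without Sin3a knockdown replicate 2 and control replicates 1 and 2 (adjusted p up to 0.0684). Over the fits without 1 library, 0 to 1 rose and 2 to 6 fell of this list. Gli1 was also lower than in the Fam60a knockdown, which measured 42, 56.8 and 50.6 CPM (log2 difference -1.33 ± 0.12, adjusted p = 0.0081). The differences of Ptch1, 0.26 ± 0.15, and Gli2, 0.02 ± 0.17, did not pass (adjusted p = 0.358 and 0.953).

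**Figure D3:**
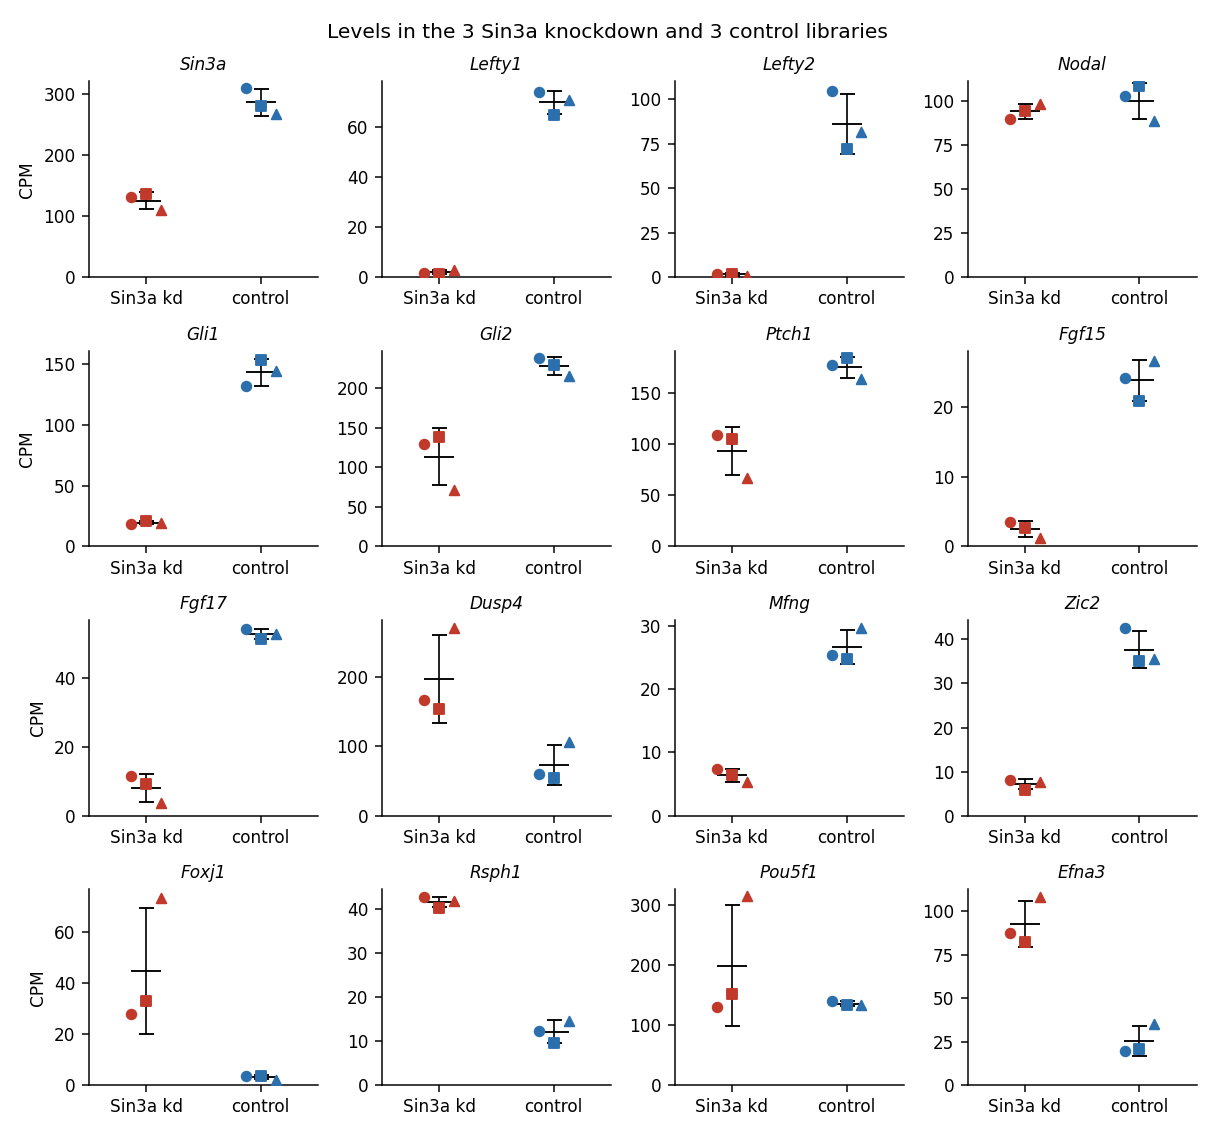
CPM of 16 genes in each Sin3a knockdown library (left, red) and control library (right, blue), with circles, squares and triangles for replicates 1, 2 and 3 and black bars for the mean and SD of 3 libraries. Each vertical axis starts at 0. Sin3a, Lefty1, Lefty2, Gli1, Gli2, Ptch1, Fgf15, Fgf17, Mfng and Zic2 show no overlap and lower levels in the knockdown, Rsph1, Foxj1, Dusp4 and Efna3 higher ones, while Nodal and Pou5f1 overlap and Pou5f1 is highest in knockdown replicate 3.

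Fibroblast growth factor signalling showed changes in both directions. Of 26 genes tested 8 rose and 5 fell, with a median of 0.02, where 6.33% and 8.63% of all genes tested rose and fell. The ligands Fgf15 and Fgf17 fell: Fgf15 measured 3.51, 2.60 and 1.22 CPM in the knockdown and 24.1, 20.8 and 26.7 CPM in the controls, and the groups were far apart. Fgf17 measured 11.4, 9.28 and 3.66 CPM in the knockdown and 54.1, 51.2 and 52.6 CPM in the controls. The groups overlapped in neither gene, and both calls held throughout. For Fgf15 the log2 fold change was -3.19 ± 0.32, or -2.89 without Sin3a knockdown replicate 3 (adjusted p = 0.00413). For Fgf17 it was -2.72 ± 0.31, or -2.39 without that library (adjusted p = 0.00517). Fgf4, the main ligand that embryonic stem cells make, fell by much less (158, 165 and 142 CPM in the knockdown and 208, 198 and 204 CPM in the controls, adjusted p = 0.0359), in 1 of the 9 fits. The ligand Fgf3 rose, with 42.4, 31.4 and 76.8 CPM in the knockdown and 14.3, 12.1 and 44 CPM in the controls, where replicate 3 was the highest of each group and the groups overlapped. Its log2 fold change was 1.23 ± 0.18 (adjusted p = 0.00854).

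On the receiving side of that pathway the receptor genes Fgfr1, Fgfr2, Fgfr3 and Fgfr4 and the feedback phosphatases Dusp4 and Dusp6 rose, while Egr1, an early response gene of ERK, fell. The log2 fold change of Egr1 was -1.45 ± 0.37 (adjusted p = 0.045), and it was called in 2 of the 9 fits. Dusp4, which inactivates ERK in the nucleus, measured 167, 154 and 271 CPM in the knockdown and 60.1, 53.9 and 107 CPM in the controls, with replicate 3 highest in each group. For Dusp4 the log2 fold change was 1.44 ± 0.15 (adjusted p = 0.00427), and the call held throughout. Dusp6, the cytoplasmic ERK phosphatase, measured 173, 199.6 and 149 CPM in the knockdown and 122, 112 and 98 CPM in the controls (log2 fold change 0.66 ± 0.12, adjusted p = 0.0155). The call of Dusp6 was lost in 5 of the 9 fits, without Sin3a knockdown replicates 1 and 2 and control replicates 1, 2 and 3 (adjusted p up to 0.0898). Fgfr4 measured 44.4, 53.3 and 82.5 CPM in the knockdown and 18.9, 33.4 and 37.4 CPM in the controls (log2 fold change 1.01 ± 0.16, adjusted p = 0.011). Fgfr2 measured 153, 109.6 and 128 CPM in the knockdown and 29.6, 35.9 and 90.7 CPM in the controls (log2 fold change 1.45 ± 0.34, adjusted p = 0.0339). The call of Fgfr4 was lost without Sin3a knockdown replicate 1 and control replicates 1 and 3 (adjusted p up to 0.0684), and that of Fgfr2 stood in 3 of the 9 fits. Fgfr4 was lower than in the Fam60a knockdown, which measured 85.9, 114 and 123 CPM (log2 difference -0.88 ± 0.16, adjusted p = 0.0328).

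In the Wnt pathway, in which secreted ligands stabilise beta-catenin, 4 of 38 genes tested rose and 5 fell, with a median of 0.01. The share called was 23.7%, against 15% of all genes tested. Sfrp1, a secreted Wnt antagonist, measured 114, 104 and 64.2 CPM in the knockdown and 228, 215 and 174 CPM in the controls (log2 fold change -1.16 ± 0.13, adjusted p = 0.00428), and the call held throughout. Notum, an extracellular enzyme that inactivates Wnt ligands, measured 40.7, 44.8 and 56.1 CPM in the knockdown and 116, 125 and 104 CPM in the controls (log2 fold change -1.29 ± 0.20, adjusted p = 0.0107). The ligand gene Wnt3a had 2, 2 and 0 reads in the knockdown libraries and 26, 32 and 14 in the controls, and its call held throughout (adjusted p = 0.00545). Axin2, a feedback inhibitor induced by beta-catenin, rose to 92.8, 94.1 and 89.4 CPM in the knockdown, against 62.2, 62.5 and 55.3 CPM in the controls (log2 fold change 0.62 ± 0.12, adjusted p = 0.017). Tcf7l1, a repressor of Wnt targets, measured 97, 94.5 and 105 CPM in the knockdown and 147, 134 and 138 CPM in the controls (log2 fold change -0.50 ± 0.10, adjusted p = 0.0199). The groups overlapped in none of these genes. The call of Notum was lost without Sin3a knockdown replicates 1 and 2 and control replicates 1 and 2 (adjusted p up to 0.0759), and the calls of Axin2 and Tcf7l1 held in 3 and 2 of the 9 fits. Wnt3a was lower than in the Fam60a knockdown, whose libraries measured 7.85, 13.7 and 6.01 CPM (adjusted p = 0.00722).

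Notch genes fell where they were called, and LIF-STAT3 genes rose where they were called. The counts of these and the next lists stand beside 6.33% risen and 8.63% fallen of all genes tested. Of 18 Notch genes tested 0 rose and 4 fell, with a median of -0.41. Mfng and Lfng, enzymes that add sugars to Notch and alter its choice of ligand, fell together with the ligand gene Dll3 and the receptor gene Notch4. Mfng measured 7.32, 6.50 and 5.28 CPM in the knockdown and 25.4, 24.7 and 29.6 CPM in the controls (log2 fold change -2.06 ± 0.23, adjusted p = 0.00481), and the call held throughout. Notch4 measured 21.2, 26.9 and 76 CPM in the knockdown and 107, 151 and 120.1 CPM in the controls, with knockdown replicate 3 the nearest to them. The log2 fold change of Notch4 was -1.75 ± 0.44, or -2.45 without that library (adjusted p = 0.0424), and it was called in 2 of the 9 fits. Of 19 BMP genes 3 rose and 2 fell. The ligand gene Bmp2 measured 21, 12.8 and 81.7 CPM in the knockdown and 2.77, 3.90 and 13.9 CPM in the controls, with replicate 3 highest in each group and an overlap of the groups. For Bmp2 the log2 fold change was 2.37 ± 0.33 (adjusted p = 0.00815), and the call was lost without control replicate 1 (adjusted p up to 0.0508). In LIF-STAT3 signalling, which sustains self-renewal in these media, 4 of 15 rose and 0 fell. Socs3, a feedback inhibitor induced by STAT3, measured 224, 241 and 263 CPM in the knockdown and 195, 181 and 181 CPM in the controls (log2 fold change 0.38 ± 0.10, adjusted p = 0.0458). Jak2, the receptor-bound kinase, measured 53.1, 56.8 and 37.4 CPM in the knockdown and 33.9, 30.2 and 27.1 CPM in the controls (log2 fold change 0.69 ± 0.16, adjusted p = 0.0318). These 2 calls held in 1 and 2 of the 9 fits. Of 18 retinoic acid genes 3 rose and 2 fell. Rdh10, which makes retinaldehyde, rose to 43.3, 32.7 and 80.8 CPM in the knockdown, against 14.7, 14.9 and 19.4 CPM in the controls (log2 fold change 1.59 ± 0.20, adjusted p = 0.00658). The binding protein Crabp1 fell to 12.7, 12.1 and 10.6 CPM in the knockdown, against 33.4, 27.2 and 27 CPM in the controls (log2 fold change -1.31 ± 0.18, adjusted p = 0.00702). Both were called in 8 of the 9 fits and lost without control replicate 1.

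Genes of the motile cilium formed a list in which rises outnumbered falls. A motile cilium beats by axonemal dynein motors on a scaffold of microtubules, radial spokes and central pair proteins. Foxj1 with the Rfx factors, which bind the X-box, switches on its genes in ciliated cells. Foxj1 (GRCm38 chr11:116330704-116335399, minus strand) had 182, 178 and 180 reads in the knockdown libraries and 21, 24 and 14 in the controls, and its call held throughout. The knockdown libraries held 6560637, 5511453 and 2607872 counted reads in all, so replicate 3 had the highest level of Foxj1. For Foxj1 the log2 fold change was 3.79 ± 0.43, or 3.30 without Sin3a knockdown replicate 3 (adjusted p = 0.00503). Of 85 structural genes listed, 57 were tested, of which 13 rose and 5 fell, beside 6.33% and 8.63% of all genes tested. The median log2 fold change of the list was 0.46. Without Sin3a knockdown replicate 3, 25 rose and 14 fell, beside 22.9% and 24.4% of all genes. The median differences of the list within pairs 1, 2 and 3 were 0.43, 0.41 and 0.41. Over the fits without 1 library, 4 to 28 rose and 2 to 14 fell, the fewest without control replicate 1. Without the replicate block 9 rose and 5 fell.

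Among the risen structural genes, Rsph1, a radial spoke protein, measured 42.7, 40.3 and 41.8 CPM in the knockdown and 12.4, 9.54 and 14.6 CPM in the controls. Cfap52, a protein inside doublet microtubules, measured 16.3, 13.6 and 9.34 CPM in the knockdown and 4.56, 2.75 and 2.83 CPM in the controls. Spef2, a central pair protein, measured 12.2, 14.1 and 6.09 CPM in the knockdown and 2.93, 2.89 and 1.19 CPM in the controls. Every knockdown library lay above every control in these genes, and knockdown replicate 3 was the lowest of its group for Cfap52 and Spef2. The log2 fold change of Rsph1 was 1.78 ± 0.22 (adjusted p = 0.00611), that of Cfap52 1.95 ± 0.23 (adjusted p = 0.00517) and that of Spef2 2.21 ± 0.22 (adjusted p = 0.00413). The calls of Cfap52 and Spef2 held throughout, and that of Rsph1 was lost in 1 fit, without control replicate 1 (adjusted p up to 0.0515). The genes that fell were the dynein heavy chains Dnah1, Dnah8 and Dnah17, the central pair gene Hydin and the tektin Tekt2. Hydin measured 15.7, 15.2 and 17.5 CPM in the knockdown and 55.1, 55.7 and 72 CPM in the controls (log2 fold change -1.92 ± 0.21, adjusted p = 0.0049). Dnah1 measured 2.29, 1.86 and 1.62 CPM in the knockdown and 9.77, 13.9 and 9.83 CPM in the controls (log2 fold change -2.48 ± 0.27, adjusted p = 0.00427). Both calls held throughout. Mcidas and Gmnc, which start the multiciliated programme upstream of Foxj1, had 0 reads in all Sin3a knockdown libraries and almost none in the controls, 0, 1 and 0 for Mcidas and 2, 3 and 0 for Gmnc. Myb, a factor of the same programme, fell (4.42, 2.97 and 2.03 CPM in the knockdown, 10.8, 10.8 and 10.9 CPM in the controls, adjusted p = 0.0203, called in 3 of the 9 fits). Summed over the 9 multiciliated markers, of which 2 rose and 1 fell, the level was 168, 175 and 225 CPM in the knockdown and 128, 120 and 133 CPM in the controls. The 2 that rose were Foxj1 and Rsph1, so the sum shows no rise of the markers as a set. Tubb4b held 505, 477 and 228 reads in the knockdown and 503, 538 and 501 in the controls. In the same order, Tekt1 held 39, 34 and 20 against 71, 80 and 84 reads, and Ccno 60, 39 and 49 against 36, 33 and 110. Of 32 intraflagellar transport and BBSome genes, which build cilia of all kinds, 3 rose and 2 fell (15.6% called, near the 15% of all genes tested).

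The Sin3a knockdown differed from the Fam60a knockdown in Foxj1 (log2 difference 1.84 ± 0.38, adjusted p = 0.0473) and in this list. Of the 57 genes 15 were higher and 4 lower, where 1.41% and 3.24% of all genes were. Rsph1 measured 11.5, 11.7 and 8.54 CPM in the Fam60a knockdown (log2 difference 1.97 ± 0.23, adjusted p = 0.0124). Cfap52 measured 3.47, 3.21 and 2.37 CPM there (log2 difference 2.10 ± 0.23, adjusted p = 0.0124). These differences between the knockdowns were calls of a contrast that had 672 calls with all libraries and 5321 without Sin3a knockdown replicate 3 (36.1% of genes, 16.7% higher and 19.4% lower). It had 195 calls without Fam60a knockdown replicate 3, 341 without control replicate 3, and 0 in edgeR without replicate 1 or 2 of any group, where 1981 to 3140 genes had an unadjusted p under 0.05.

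**Figure D4:**
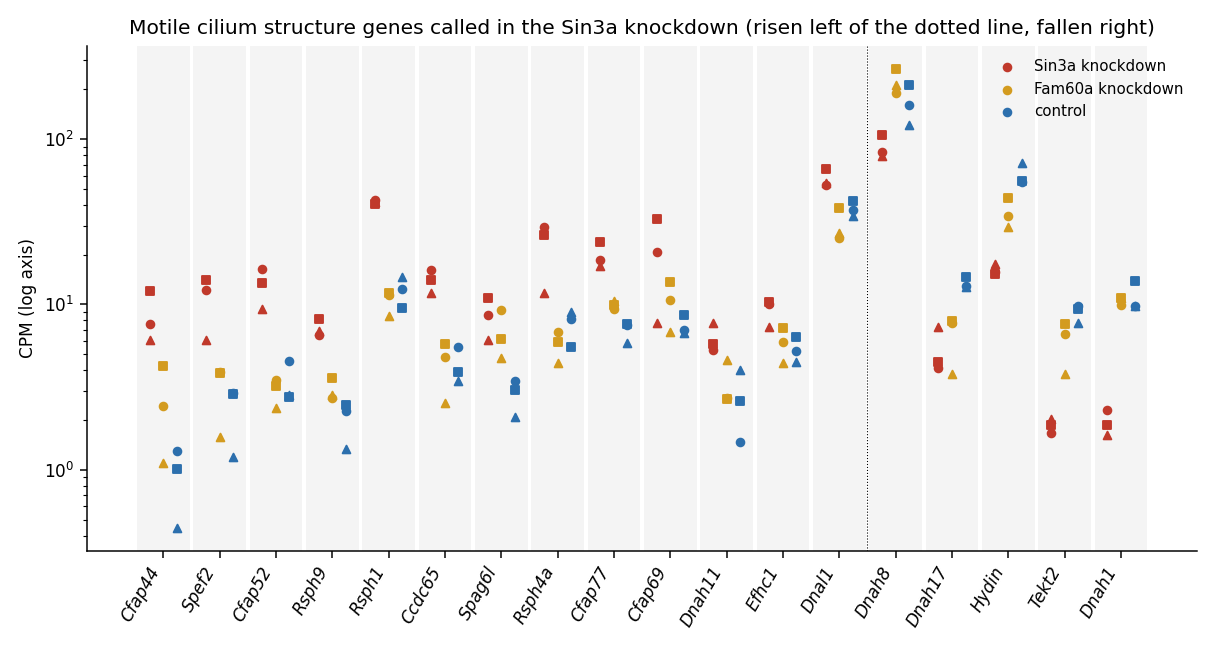
CPM (log axis) of the 18 motile cilium structure genes called in the Sin3a knockdown, in each library of the Sin3a knockdown (red, left), the Fam60a knockdown (yellow, middle) and the control (blue, right). Points are circles, squares and triangles for replicates 1, 2 and 3. The 13 genes left of the dotted line rose and the 5 right of it fell, and for Rsph1 and Cfap52 the Fam60a knockdown libraries lie at the level of the controls.

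The promoters of 4 called structural genes held an X-box, searched on both strands as GTNNCC, any 3 bases and GNAAC, in the window from 250 bases before to 50 bases after the annotated start. They are shown because 2 of these genes rose and 2 fell in the same libraries with the same motif. Sequences are from RefSeq (GRCm38.p6), 5′ to 3′ on the strand of the gene, with the X-box, or its reverse complement, in capitals.
Cfap44, rose, chr16:44394549-44394848, plus strand: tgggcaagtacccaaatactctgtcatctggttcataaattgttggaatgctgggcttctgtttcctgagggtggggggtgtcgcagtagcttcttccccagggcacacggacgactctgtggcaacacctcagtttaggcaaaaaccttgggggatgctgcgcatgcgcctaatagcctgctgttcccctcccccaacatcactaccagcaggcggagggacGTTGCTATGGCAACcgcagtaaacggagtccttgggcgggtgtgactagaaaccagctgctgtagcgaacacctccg
Spag6l, rose, chr16:16829314-16829613, minus strand: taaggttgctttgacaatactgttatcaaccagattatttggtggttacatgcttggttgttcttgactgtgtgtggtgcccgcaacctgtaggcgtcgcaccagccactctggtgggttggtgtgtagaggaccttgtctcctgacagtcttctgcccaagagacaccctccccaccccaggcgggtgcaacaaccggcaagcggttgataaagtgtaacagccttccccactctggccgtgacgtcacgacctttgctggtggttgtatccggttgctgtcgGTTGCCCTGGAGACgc
Hydin, fell, chr8:110266727-110267026, plus strand: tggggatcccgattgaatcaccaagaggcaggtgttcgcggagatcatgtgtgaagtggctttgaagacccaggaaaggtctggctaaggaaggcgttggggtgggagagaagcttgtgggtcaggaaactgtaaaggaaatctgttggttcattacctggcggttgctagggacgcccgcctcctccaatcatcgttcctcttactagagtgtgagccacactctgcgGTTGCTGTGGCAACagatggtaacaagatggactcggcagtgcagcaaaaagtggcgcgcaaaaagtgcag
Dnah17, fell, chr11:118129170-118129469, minus strand: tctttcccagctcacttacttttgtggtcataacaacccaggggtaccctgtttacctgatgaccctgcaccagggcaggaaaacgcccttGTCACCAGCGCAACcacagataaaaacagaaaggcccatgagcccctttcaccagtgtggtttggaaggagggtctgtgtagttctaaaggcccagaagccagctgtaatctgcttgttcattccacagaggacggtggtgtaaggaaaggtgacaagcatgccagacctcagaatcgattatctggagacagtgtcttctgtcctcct
The match began 27 bases before the start in Cfap44 and 21 bases before it in Hydin, 159 bases before it in Dnah17 and 34 bases after it in Spag6l. Cfap44, a cilia and flagella associated protein, measured 7.62, 12.1 and 6.09 CPM in the knockdown and 1.30, 1.01 and 0.447 CPM in the controls. Dnah17, an outer arm dynein heavy chain, measured 4.12, 4.46 and 7.31 CPM in the knockdown and 12.9, 14.6 and 12.7 CPM in the controls. The call of Cfap44 held throughout and that of Dnah17 in 2 of the 9 fits. Spag6l, the central pair gene named here after its values were seen, measured 8.69, 11 and 6.09 CPM in the knockdown and 3.42, 3.04 and 2.09 CPM in the controls. Of 10826 tested genes with a promoter entry, 289 (2.67%) held the motif, as did 35 of 723 risen genes (4.84%), 10 of 858 fallen genes (1.17%) and 244 of 9245 genes not called (2.64%). In the list of structural genes 14 of 51 promoters held it (27.5%), 2 of 10 among the members that rose and 12 of 41 (29.3%) among those that did not rise. A match is a description of letters and not a measured binding site.

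Pluripotency and lineage genes moved unevenly. Pou5f1, Sox2, Nanog, Klf4, Esrrb and Zfp42 did not pass, with log2 fold changes of 0.46, -0.10, -0.29, -0.11, -0.18 and 0.16, and of 0.07, -0.12, -0.10, 0.11, -0.10 and -0.05 without Sin3a knockdown replicate 3. Among 25 genes of naive pluripotency, the state held by LIF, 1 rose and 8 fell, with a median of -0.46. Over all genes tested 6.33% rose and 8.63% fell. Klf2, a factor of the naive network, measured 87.2, 72.1 and 95.1 CPM in the knockdown and 157, 137 and 137 CPM in the controls. Prdm14, a repressor of lineage genes, measured 43.6, 41.4 and 24.4 CPM in the knockdown and 80.0, 70.0 and 66.6 CPM in the controls. The adhesion gene Pecam1 measured 75.5, 69.6 and 31.3 CPM in the knockdown and 148, 162 and 121 CPM in the controls. None of these groups overlapped. In Klf2 the log2 fold change was -0.77 ± 0.11, or -0.85 without that library (adjusted p = 0.00876). In Prdm14 it was -1.02 ± 0.18, or -0.88 (adjusted p = 0.0142), and in Pecam1 -1.35 ± 0.19, or -1.14 (adjusted p = 0.00765). Pecam1 held throughout. The call of Klf2 was lost without Sin3a knockdown replicates 1 and 2 and control replicates 1 and 2 (adjusted p up to 0.0823), and that of Prdm14 without Sin3a knockdown replicates 1 and 2 and control replicates 1 and 2 (adjusted p up to 0.0691).

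Of 17 genes of primed pluripotency, the later epiblast state, 2 rose and 4 fell, beside 6.33% and 8.63% of all genes tested. Zic2, a zinc finger factor of that state, measured 8.08, 5.94 and 7.72 CPM in the knockdown, against 42.5, 35 and 35.5 CPM in the controls, with all libraries of each group close together (log2 fold change -2.39 ± 0.17, adjusted p = 0.00258). Its call held throughout. Zic5, a relative that lies beside Zic2, measured 13.4, 12.6 and 3.66 CPM in the knockdown and 35.7, 33.3 and 30.4 CPM in the controls (log2 fold change -1.77 ± 0.32, adjusted p = 0.0149), and was called in 4 of the 9 fits. The methyltransferase Dnmt3b rose to 345, 347 and 433 CPM in the knockdown, against 218, 220.5 and 296 CPM in the controls (log2 fold change 0.62 ± 0.09, adjusted p = 0.00816), and was called in 7 of the 9 fits. Zic2 was also lower than in the Fam60a knockdown (log2 difference -0.85 ± 0.17, adjusted p = 0.045).

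Primitive endoderm genes gave the highest share of calls, and that share depended on the pairing of libraries. Of 20 tested 15 rose and 0 fell with replicate number as a block, but 1 rose and 0 fell without the block. Of all genes tested 6.33% rose and 8.63% fell with the block, and 3.91% and 6.28% without it. Over the fits without 1 library 0 to 14 rose and 0 fell, with 0 called without control replicate 1 and 13 without Sin3a knockdown replicate 3. Control replicate 3 was the high library of its group. Over the list its median log2 deviation from the control mean was 1.10, against -0.54 and -0.45 in control replicates 1 and 2. The Sin3a knockdown libraries stood at 0.86, 0.66 and 1.67. On the log2 scale the median differences within pairs 1, 2 and 3 were 1.60, 1.11 and 0.89. All knockdown libraries lay above all controls in 6 of the 20 genes and below them in 0. Over all genes tested the shares were 14.7% and 18.5%. Gata6, the factor that starts this lineage, measured 208, 195 and 221 CPM in the knockdown and 57, 61 and 137 CPM in the controls (log2 fold change 1.38 ± 0.25, adjusted p = 0.0153, or 0.029 without the block). The receptor gene Pdgfra measured 346, 327 and 339 CPM in the knockdown and 68.3, 91.7 and 229 CPM in the controls (log2 fold change 1.54 ± 0.33, adjusted p = 0.0247, or 0.0522 without the block). The groups overlapped in neither gene, and the gap was smallest to control replicate 3. Both genes were also named among abundant rises, which were picked only where the groups did not overlap. Gata4, Sox7 and Sox17 did overlap, and Gata4 held 979, 585 and 470 reads in the knockdown and 241, 205 and 957 in the controls. The call of Gata6 was lost without Sin3a knockdown replicates 1 and 2 and control replicates 1 and 2 (adjusted p up to 0.0791), and Pdgfra was called in 3 of the 9 fits. The summed level of 8 markers of this lineage, of which 7 rose, was 1980, 1820 and 2840 CPM in the knockdown and 698, 894 and 1740 CPM in the controls. Lama1 held the most reads of the 8 in every library, with 5656, 5004 and 4347 in the knockdown and 2514, 4150 and 5114 in the controls. Dab2, the marker not called, held 1371, 809 and 343 reads in the knockdown and 438, 448 and 1907 in the controls.

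Markers of other cell types gave the following sums. Of 11 fibroblast markers 7 were tested, 2 rose and 2 fell. The sums were 408, 374 and 416 CPM in the knockdown and 129, 211 and 299 CPM in the controls. The marker Pdgfra, which is also a primitive endoderm marker, made up 346, 320 and 320 CPM of these in the knockdown and 69, 91.9 and 231 CPM in the controls. Without it the sums were 62.2, 54.6 and 96.2 CPM in the knockdown and 60.1, 119 and 67.7 CPM in the controls. Thy1 and Pdgfrb fell, with log2 fold changes of -1.77 and -1.31 (adjusted p = 0.0133 and 0.0187, called in 5 and 3 of the 9 fits). Besides Pdgfra the marker that rose was Fbn1, with 249, 182 and 111 reads in the knockdown and 75, 178 and 98 in the controls (called in 3 of the 9 fits). The fibroblast genes Dcn, Lum, Postn and S100a4 had 0 reads in every Sin3a knockdown library. They had few in the controls as well: 0, 4 and 0 for Dcn, 1, 2 and 0 for Lum, 0, 12 and 1 for Postn and 1, 2 and 1 for S100a4. Neuron markers summed to 52.3, 45.2 and 26.8 CPM in the knockdown and 125, 114 and 132 CPM in the controls, where 2 of 3 tested fell. Trophectoderm markers summed to 126, 113 and 360 CPM in the knockdown and 109, 95.1 and 189 CPM in the controls. Neural progenitor markers summed to 17.2, 16.3 and 110 CPM in the knockdown and 38.7, 36.3 and 41.2 CPM in the controls. In knockdown replicate 3 the sum was almost all Nes, which measured 13.9, 13.4 and 106 CPM in the knockdown and 21.4, 21.2 and 23.1 CPM in the controls. Pax6, a factor of neural progenitors, had 18, 13 and 4 reads in the knockdown and 100, 100 and 112 in the controls, and its fall held throughout (log2 fold change -2.70 ± 0.28, adjusted p = 0.00414). The part of other cell types in the results on lineage and neuronal genes was not tested.

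**Figure D5:**
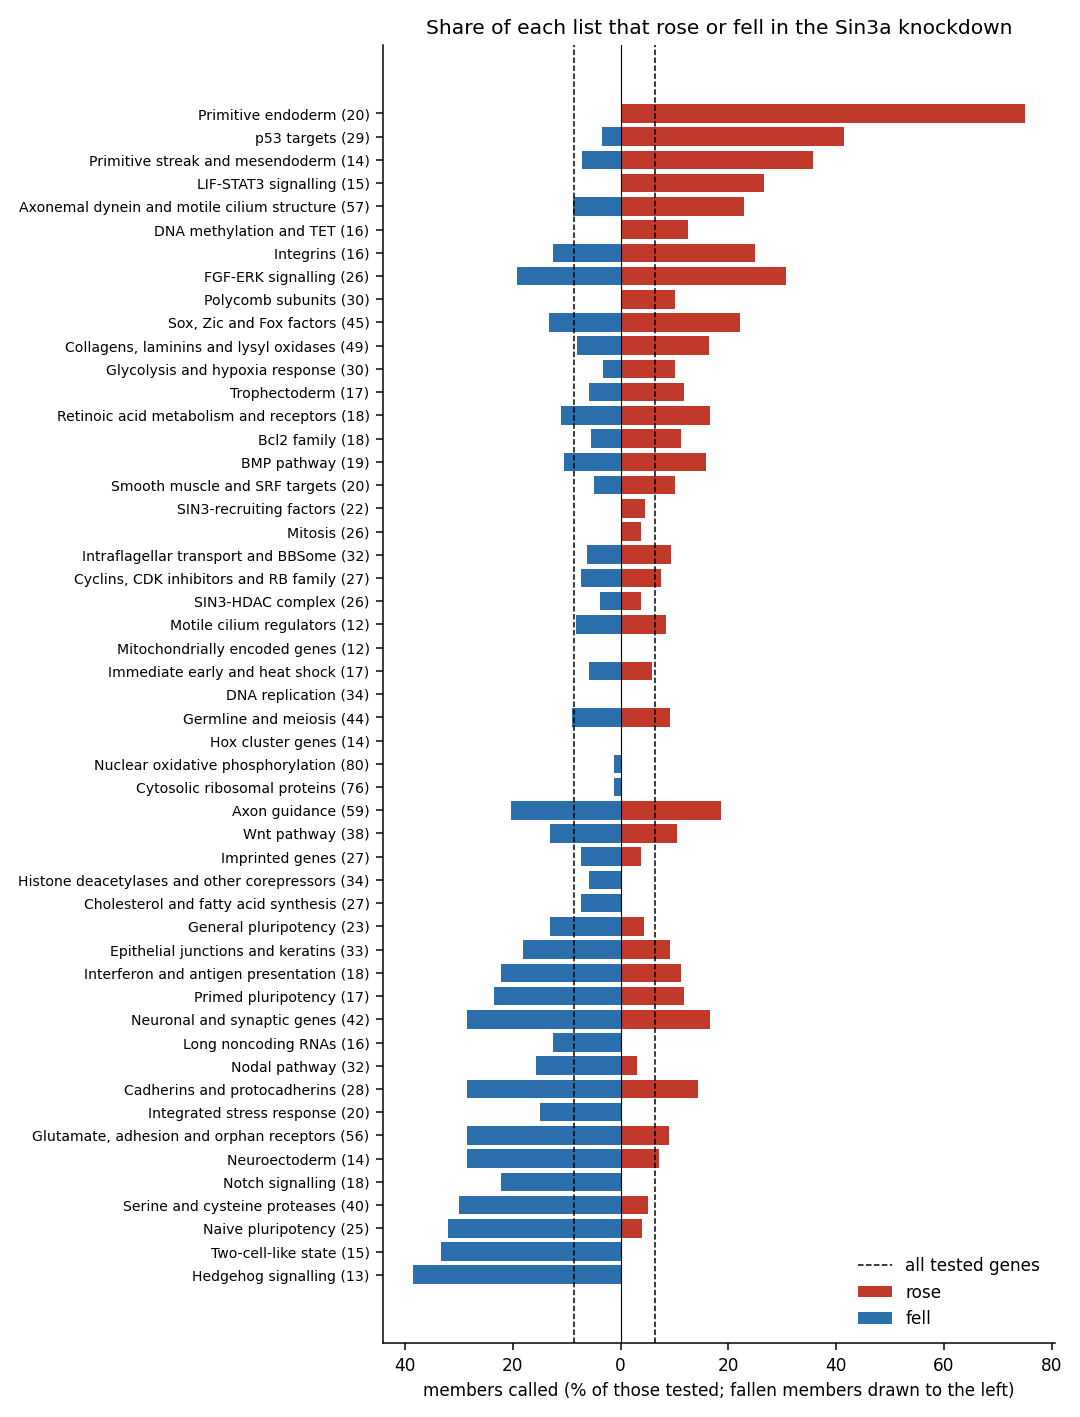
Share of the tested members of each list of at least 12 tested genes that rose (red, to the right) or fell (blue, to the left) in the Sin3a knockdown. Brackets give the number tested and dashed lines stand at the shares of all tested genes, 6.33% and 8.63%. Primitive endoderm lies farthest to the right with 15 of 20, a count that is 1 without the replicate block, and Hedgehog signalling farthest to the left with 5 of 13.

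Without Sin3a knockdown replicate 3, when 22.9% of all genes rose and 24.4% fell, the counts of most lists were higher. Hedgehog signalling then had 1 rise and 6 falls of 13, Nodal 10 and 12 of 32, fibroblast growth factor signalling 13 and 5 of 26, Wnt 7 and 9 of 38, Notch 1 and 10 of 18 and LIF-STAT3 9 and 1 of 15. Naive pluripotency had 2 rises and 13 falls of 25, and primed pluripotency 5 and 6 of 17. Targets of p53 had 22 rises and 1 fall of 29, neuronal and synaptic genes 7 and 21 of 42, axon guidance 16 and 23 of 59, and proteases 6 and 18 of 40. In the order of rises and falls, BMP genes had 11 and 3, retinoic acid genes 4 and 5, neuroectoderm 3 and 6, trophectoderm 7 and 4, primitive streak 7 and 1, general pluripotency 5 and 4 and the 2-cell-like state 1 and 9. Motile cilium regulators had 4 and 4, intraflagellar transport 14 and 3, germline genes 13 and 12, integrins 8 and 4, cadherins 7 and 14, epithelial junctions 5 and 10, receptors 10 and 23, fibroblast markers 2 and 3 and smooth muscle 3 and 6. The Bcl2 family had 6 and 4, cyclins 10 and 5, mitosis 5 and 0, imprinted genes 6 and 7, DNA methylation 3 and 2, corepressors 3 and 11, Polycomb 9 and 5, Sox, Zic and Fox factors 15 and 11 and long noncoding RNAs 0 and 9. Glycolysis had 5 and 6, cholesterol synthesis 3 and 7, nuclear oxidative phosphorylation 4 and 4, the integrated stress response 2 and 11, interferon genes 3 and 8, immediate early genes 4 and 2, Hox genes 1 and 2 and replication-dependent histones 0 and 3. The median log2 fold change changed sign in the neuroectoderm list (0.17 with all libraries and -0.29 without this one), the primed list (0.18 and -0.08) and the smooth muscle list (0.11 and -0.15).

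Neuronal and synaptic genes were called often and in both directions, with 7 rising and 12 falling of 42 tested. Over all genes tested 6.33% rose and 8.63% fell. Unc13a, which primes synaptic vesicles for release, rose to 119, 156 and 173 CPM in the knockdown, against 33.9, 52.8 and 44.8 CPM in the controls (log2 fold change 1.78 ± 0.12, adjusted p = 0.00258). Scn3b, a sodium channel subunit, measured 54.6, 69.5 and 22.7 CPM in the knockdown and 5.05, 8.67 and 5.21 CPM in the controls, with knockdown replicate 3 the lowest of its group and still above every control. For Scn3b the log2 fold change was 2.91 ± 0.30 (adjusted p = 0.00414). On the other side the vesicle protein gene Sv2a measured 4.42, 4.27 and 2.44 CPM in the knockdown and 22.8, 30.8 and 18.3 CPM in the controls (log2 fold change -2.67 ± 0.22, adjusted p = 0.0026). The active zone scaffold Bsn measured 2.13, 1.49 and 1.62 CPM in the knockdown and 15, 13.4 and 10.7 CPM in the controls (log2 fold change -2.89 ± 0.25, adjusted p = 0.00282). The calcium sensor Syt7 measured 9.91, 10.2 and 4.06 CPM in the knockdown and 36.8, 48.9 and 32.9 CPM in the controls (log2 fold change -2.27 ± 0.24, adjusted p = 0.00428). All 5 calls held throughout. Each of the 5 also differed in the same direction from the Fam60a knockdown, with log2 differences of 1.00, 1.86, -1.76, -2.10 and -2.10 and adjusted p from 0.0124 to 0.0213. In the neuroectoderm list 1 of 14 rose and 4 fell. The neuronal RNA-binding gene Elavl3 measured 8.23, 9.47 and 7.72 CPM in the knockdown and 44.5, 49.4 and 49 CPM in the controls (log2 fold change -2.50 ± 0.21, adjusted p = 0.00265), and the call held throughout.

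Axon guidance genes, whose ligands and receptors steer cells and axons by contact or gradient, gave 11 rises and 12 falls of 59 tested. The shares over all genes tested were 6.33% and 8.63%. Efna3, a membrane-tethered ephrin ligand, measured 87.5, 82.6 and 108 CPM in the knockdown and 19.7, 21 and 35.3 CPM in the controls, a clear separation (log2 fold change 1.91 ± 0.15, adjusted p = 0.0026). Sema6d, a transmembrane semaphorin, rose to 7.32, 6.69 and 4.87 CPM in the knockdown, against 0.489, 0.723 and 1.04 CPM in the controls. Sema4a fell to 21, 20.6 and 19.5 CPM in the knockdown, against 57.8, 61.9 and 60.5 CPM in the controls. The secreted Sema3f fell to 4.12, 4.64 and 2.03 CPM in the knockdown, against 13.2, 20.4 and 15.2 CPM in the controls. Log2 fold changes were 3.02 ± 0.38 in Sema6d (adjusted p = 0.00598), -1.56 ± 0.15 in Sema4a (adjusted p = 0.00334) and -2.14 ± 0.26 in Sema3f (adjusted p = 0.00545). The calls of Efna3 and of the 3 semaphorins held throughout.

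Cadherins and epithelial junction genes fell more often than they rose, as did all genes tested (6.33% rose and 8.63% fell), while integrins did not. Of 28 cadherins and protocadherins 4 rose and 8 fell, and of 33 genes of epithelial junctions and keratins 3 rose and 6 fell. P-cadherin (Cdh3) measured 11.6, 13.9 and 7.72 CPM in the knockdown and 42.4, 54.4 and 43.1 CPM in the controls (log2 fold change -2.05 ± 0.24, adjusted p = 0.00545). Calsyntenin 3 (Clstn3) measured 38.1, 32.1 and 26 CPM in the knockdown and 107, 111 and 112 CPM in the controls (log2 fold change -1.79 ± 0.17, adjusted p = 0.00368). The keratin gene Krt17, of stressed and basal epithelium, measured 4.12, 3.90 and 9.75 CPM in the knockdown and 53.6, 48.9 and 52.6 CPM in the controls (log2 fold change -3.25 ± 0.40, adjusted p = 0.00579). The tight junction adaptor Tjp3 measured 6.71, 10.0 and 8.94 CPM in the knockdown and 46.1, 43.1 and 42.5 CPM in the controls (log2 fold change -2.38 ± 0.20, adjusted p = 0.00282). These 4 genes had no overlap and their calls held throughout. The epithelial factors Grhl2 and Grhl3 moved apart. Grhl2 measured 17.8, 15.2 and 22.7 CPM in the knockdown and 48.5, 45 and 59.4 CPM in the controls (log2 fold change -1.46 ± 0.20, adjusted p = 0.00783). Grhl3 measured 87.1, 107 and 83.3 CPM in the knockdown and 58.3, 50.7 and 56.6 CPM in the controls (log2 fold change 0.74 ± 0.14, adjusted p = 0.0174). They were called in 7 and 2 of the 9 fits. Of 16 integrins 4 rose and 2 fell. The receptor subunit gene Itga8 measured 56.1, 67.2 and 24 CPM in the knockdown and 10.4, 15.8 and 6.41 CPM in the controls (log2 fold change 2.17 ± 0.21, adjusted p = 0.00386), and the call held throughout.

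Of 40 serine and cysteine proteases tested 2 rose and 12 fell, with a median of -0.53, beside 6.33% and 8.63% of all genes tested. Of 56 glutamate, adhesion and orphan receptors 5 rose and 16 fell, with a median of -0.52. Prss8, a membrane-anchored serine protease of epithelia, measured 2.59, 3.53 and 4.47 CPM in the knockdown and 12.9, 13.6 and 23.1 CPM in the controls (log2 fold change -2.21 ± 0.23, adjusted p = 0.00414). The lysosomal protease Ctsf measured 22.6, 24 and 17.9 CPM in the knockdown and 51.3, 67.7 and 50.8 CPM in the controls (log2 fold change -1.40 ± 0.15, adjusted p = 0.00428). Both calls held throughout. Adgrb1, a receptor that recognises dying cells, measured 14.2, 16 and 22.3 CPM in the knockdown and 70.5, 99.6 and 75.4 CPM in the controls (log2 fold change -2.24 ± 0.31, adjusted p = 0.00765), and was called in 7 of the 9 fits. Of 49 collagens, laminins and lysyl oxidases 8 rose and 4 fell, but 13 and 20 did without Sin3a knockdown replicate 3. The median log2 fold change of this list was 0.23 with that library and -0.28 without it, and the median differences within pairs 1, 2 and 3 were -0.09, -0.52 and 0.90. The basement membrane gene Lama1, which also counts among the primitive endoderm genes, rose to 862, 929 and 1766 CPM in the knockdown, against 409.5, 600.0 and 762 CPM in the controls (log2 fold change 0.98 ± 0.14, adjusted p = 0.00854), and was called in 8 of the 9 fits. Without the replicate block 1 gene of this list rose and 2 fell.

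Counts of germline, apoptosis, immune and stress genes are set beside 15% called over all genes tested. Of 44 germline and meiosis genes 4 rose and 4 fell (18.2% called, near that share). Taf7l, a germ cell subunit of the basal transcription machinery, rose to 42.4, 41 and 32.9 CPM in the knockdown, against 10.1, 10.3 and 8.49 CPM in the controls (log2 fold change 2.00 ± 0.21, adjusted p = 0.00414). The germ cell ADP/ATP carrier Slc25a31 rose to 41.5, 34.9 and 38.2 CPM in the knockdown, against 10.8, 7.81 and 12.1 CPM in the controls (log2 fold change 1.92 ± 0.18, adjusted p = 0.00321). Prdm1, the repressor that starts the germ cell fate, fell to 10.8, 9.84 and 12.2 CPM in the knockdown, against 50.5, 48.3 and 45.9 CPM in the controls (log2 fold change -2.16 ± 0.20, adjusted p = 0.00311). These 3 calls held throughout. Among 29 targets of p53, 12 rose and 1 fell. The apoptosis gene Perp rose to 118, 134 and 58.9 CPM in the knockdown, against 29, 31.4 and 23.5 CPM in the controls (log2 fold change 1.86 ± 0.27, adjusted p = 0.00838). Pmaip1, which encodes the BH3-only protein Noxa, rose to 77.6, 81.1 and 68.7 CPM in the knockdown, against 41.1, 32.5 and 38 CPM in the controls (log2 fold change 1.04 ± 0.14, adjusted p = 0.00708). They were called in 7 and 8 of the 9 fits. Hrk, another BH3-only gene, fell to 8.69, 7.24 and 2.44 CPM in the knockdown, against 30.1, 41.2 and 27.4 CPM in the controls (log2 fold change -2.52 ± 0.38, adjusted p = 0.00969), and was called in 7 of the 9 fits. In interferon and antigen presentation 2 of 18 rose and 4 fell. Tap1, the peptide transporter of antigen presentation, rose to 34.1, 39.7 and 109 CPM in the knockdown, against 4.89, 9.54 and 31 CPM in the controls (log2 fold change 2.15 ± 0.26, adjusted p = 0.00554). The interferon factor Irf1 fell to 28.7, 28.6 and 23.6 CPM in the knockdown, against 73.6, 65.1 and 48.4 CPM in the controls (log2 fold change -1.20 ± 0.14, adjusted p = 0.00517). The call of Tap1 held throughout, and that of Irf1 was lost without control replicate 1 (adjusted p up to 0.0537). Of 20 genes of the integrated stress response 0 rose and 3 fell (15% called, the share of all genes). Nupr1, a stress-induced chromatin protein, measured 8.38, 6.50 and 5.69 CPM in the knockdown and 34.4, 32.2 and 32.3 CPM in the controls (log2 fold change -2.32 ± 0.33, adjusted p = 0.00842), and was called in 7 of the 9 fits.

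Several lists of basic cell functions had few calls, where 15% of all genes tested were called. In edgeR 0 of 34 DNA replication genes passed (2 at an unadjusted p under 0.05, 0 in DESeq2 and 8 in voom), as did 0 of 14 Hox cluster genes (3 at an unadjusted p under 0.05, 1 in DESeq2 and 5 in voom). For 8 replication-dependent histones the edgeR count was 0 (3 at an unadjusted p under 0.05, 0 in DESeq2 and 3 in voom), and for 12 mitochondrially encoded genes it was 0 with 0 at an unadjusted p under 0.05 and 0 in DESeq2 and voom. The median difference of the mitochondrial list was -0.04, 0.25 and -4.26 on the log2 scale within pairs 1, 2 and 3, and without Sin3a knockdown replicate 3, the library with 90 mitochondrial reads, 1 of its genes rose. Leaving out Sin3a knockdown replicate 3, 6 DNA replication genes rose and 3 fell. Of 80 nuclear genes of oxidative phosphorylation 1 fell, of 76 cytosolic ribosomal protein genes 1 fell, and of 26 mitosis genes 1 rose. In the fit without that library 25 of the 76 ribosomal protein genes fell. A gene that failed to pass is not shown to be equal in the groups.

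The remaining lists gave the following counts, beside 6.33% and 8.63% of all genes. Motile cilium regulators gave 1 rise and 1 fall of 12. General pluripotency genes gave 1 rise and 3 falls of 23, primitive streak genes 5 and 1 of 14, trophectoderm genes 2 and 1 of 17, and genes of the 2-cell-like state 0 and 5 of 15. The 5 risen primitive streak genes were Sox17, Foxa2, Hand1, Gata4 and Gata6, and all but Hand1 are among the primitive endoderm markers summed above. In the primitive streak list 1 rose and 0 fell without the replicate block, and 0 rose and 0 fell without control replicate 1. In the same order of rises and falls, the Bcl2 family gave 2 and 1 of 18, cyclins and CDK inhibitors 2 and 2 of 27, imprinted genes 1 and 2 of 27 and DNA methylation 2 and 0 of 16. Among chromatin regulators, other corepressors gave 0 and 2 of 34 and Polycomb subunits 3 and 0 of 30. Smooth muscle genes gave 2 and 1 of 20, glycolysis 3 and 1 of 30 and cholesterol synthesis 0 and 2 of 27. Sox, Zic and Fox factors gave 10 and 6 of 45, immediate early genes 1 and 1 of 17 and long noncoding RNAs 0 and 2 of 16.

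Among abundant genes, those of at least 50 CPM in the controls, the largest changes included 3 rises and 3 falls described here. Plk2, a kinase of centriole duplication and a p53 target, rose to 148, 160.4 and 189.7 CPM in the knockdown, against 47.6, 47.7 and 65.1 CPM in the controls (log2 fold change 1.64 ± 0.10, adjusted p = 0.00258). Pik3r1, the regulatory subunit of PI3 kinase, rose to 127, 109 and 149 CPM in the knockdown, against 47.9, 48.9 and 58.3 CPM in the controls (log2 fold change 1.31 ± 0.11, adjusted p = 0.00282). Trio, a guanine nucleotide exchange factor, rose to 136, 140.2 and 220.2 CPM in the knockdown, against 55.6, 74.2 and 57.1 CPM in the controls (log2 fold change 1.39 ± 0.19, adjusted p = 0.00786), and was called in 8 of the 9 fits. The muscle actin crosslinker Actn3 fell to 13.4, 10.8 and 13.8 CPM in the knockdown, against 86.7, 71.9 and 71.4 CPM in the controls (log2 fold change -2.62 ± 0.34, adjusted p = 0.00661). The muscle methyltransferase gene Smyd1 fell to 10.7, 10.4 and 3.66 CPM in the knockdown, against 50.7, 53.5 and 53.3 CPM in the controls (log2 fold change -2.72 ± 0.33, adjusted p = 0.00576). Rnf213, a large ubiquitin ligase, fell to 11.4, 10.4 and 12.6 CPM in the knockdown, against 63.2, 95.3 and 105 CPM in the controls (log2 fold change -2.92 ± 0.23, adjusted p = 0.0026). Apart from Trio, whose call was lost without control replicate 1, these calls held throughout. Among genes of lower level, the haematopoietic GTPase Rac2 fell to 1.07, 1.30 and 0.406 CPM in the knockdown, against 19.9, 16.5 and 14.9 CPM in the controls (log2 fold change -4.18 ± 0.38, adjusted p = 0.00311). Slfn9 fell to 0.610, 0.928 and 0.406 CPM in the knockdown, against 15.3, 21.5 and 14.7 CPM in the controls (log2 fold change -4.71 ± 0.38, adjusted p = 0.0026). Both calls held throughout.

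Set directly against the Fam60a knockdown, the Sin3a knockdown was higher in 204 genes and lower in 468 (4.65% of those tested). Of the 204, 123 had also risen against the control, and of the 468, 338 had also fallen. Both contrasts use the Sin3a knockdown libraries, so these counts are a description. Acap1, a GTPase-activating protein of endosomal recycling, measured 7.47, 9.28 and 11 CPM in the Sin3a knockdown, 57.9, 67.9 and 44.7 CPM in the Fam60a knockdown and 62.1, 65.9 and 50.5 CPM in the controls. Ephx2, the soluble epoxide hydrolase, measured 13.9, 10.6 and 6.50 CPM in the Sin3a knockdown, 60.7, 49.9 and 51.1 CPM in the Fam60a knockdown and 76.4, 58.6 and 57.2 CPM in the controls. The testis gene family member Spata31d1b measured 3.35, 2.79 and 1.22 CPM, 34.3, 37.1 and 20.6 CPM and 30.5, 33.8 and 29.1 CPM in the same order of groups. In these 3 genes the Fam60a knockdown lay near the controls, with log2 differences between the knockdowns of -2.65 ± 0.22, -2.38 ± 0.19 and -3.56 ± 0.28 (adjusted p = 0.00722, 0.00722 and 0.00722). In the other direction the ankyrin repeat gene Ankrd42 measured 29.9, 31.4 and 47.1 CPM in the Sin3a knockdown, 7.70, 10.0 and 5.53 CPM in the Fam60a knockdown and 4.89, 8.67 and 4.17 CPM in the controls (log2 difference between the knockdowns 2.24 ± 0.34, adjusted p = 0.0224). Creb5 was lower in the Sin3a knockdown than in both other groups, with 0.762, 1.30 and 0.812 CPM there, 10.9, 18.1 and 13.3 CPM in the Fam60a knockdown and 2.44, 4.63 and 3.72 CPM in the controls (log2 difference between the knockdowns -3.82 ± 0.26, adjusted p = 0.00631). Reads of Spata31d1b can be shared with near-identical members of its family, so its level is uncertain.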

How the data were processed

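Total RNA of 9 libraries was read as stranded single ends of 50 bases. Whole-number read counts for Ensembl genes, not normalized, were deposited. Per the submitters' processing notes STAR 2.4.0j, Picard, featureCounts and Subread were used, and per the file headers the alignments counted were free of marked duplicates, which caps the count of very abundant short genes. Which build the counting used is not given in the sources used here. Symbols, positions and exon GC content are from GENCODE M21 on GRCm38, which matched 32937 of 37990 gene IDs. Promoters are from RefSeq GRCm38.p6, 250 bases before to 50 bases after the start.

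R 4.3.3 and edgeR 4.0.16 were used. Filtering by filterByExpr with the 3 groups left 14465 genes, libraries were TMM-scaled, and all 9 were fitted with group and replicate number by robust quasi-likelihood F-tests. Every gene p is from this fit, adjusted by Benjamini-Hochberg over all genes tested and called under 0.05. Dividing the log2 fold change by the root of F gave its SE. Log CPM values used a prior count of 2. Total counts ran from 2607872 to 7674887 per library, and floors of 3 counts cover counting error only. Fitting was tested on counts simulated from the fitted model, which has no term for GC content. With a simulated log2 change of 1 in size, 19 of 49 rises and 12 of 48 falls were called. At a size of 2 these were 48 of 50 and 40 of 48. Among unchanged genes 6 were called.

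The replicate numbers paired the libraries: deviations from group means correlated across genes with r of 0.178 to 0.622 between same-numbered libraries of different groups in 9 of 9 pairs, against -0.448 to 0.113 between other numbers. The highest values were of the Fam60a knockdown with the control. Between Sin3a knockdown and control r was 0.239, 0.308 and 0.298 for the same numbers and -0.33 to 0.113 for others. Deviations cancel within each group, so higher same-number values lower the others. The pairing comes from the data and the shared numbers, as the labels say only that controls were made in parallel. 

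The comparison, the markers and the 53 gene lists, for which 27 entries were not found, were chosen with earlier results of these data known. Named genes are a set of pluripotency and given markers, the 15 largest rises and 15 largest falls with a mean of at least 2 CPM, the 12 largest of each among genes of at least 50 CPM in the controls, from each list the 5 risen and 5 fallen members of lowest adjusted p at most, all Nodal and SIN3 complex genes, and the 10 largest per direction against the Fam60a knockdown. Not all of these are described, and 1 of them is not reported here. Alternatives were a fit without the block, fits on 6 libraries, DESeq2 1.42.0, its size factors in edgeR, no filter on low counts, voom of limma 3.58.1 with quality weights, a lowess GC correction with the block, and leaving out each library.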

Additional observations from a re-analysis of the deposited data

How the results depend on the processing

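With 9 libraries and the replicate block 2164 genes were called. The count was 1475 without the replicate block, 0 on the 6 libraries of the comparison with it and 739 without it (an alternative added after seeing the data), 2187 with DESeq2 size factors, 2052 with no filter, 2904 in DESeq2, 3462 with the GC correction, 7316 in voom, which gave Sin3a knockdown replicate 3 a weight of 0.0433, and 7453 without replicate 3 of all groups. Leaving out 1 library gave 312 to 6975. For the 292 calls summed over lists these values were 194 without the block, 0 and 119 on 6 libraries with and without it, 745 in voom, 760 without replicate 3 of all groups and 73 to 712 leaving out 1 library. Of the named genes 267 were called, 0 and 129 on 6 libraries with and without the block, and 91 to 288 leaving out 1 library. Against the Fam60a knockdown 672 genes were called, 443 without the block, 1513 in DESeq2, 1602 with the GC correction, 6174 in voom, 6462 without replicate 3 of all groups and 0 to 5321 leaving out 1 library. Fits on 6 libraries have fewer residual degrees of freedom, and the cause of the other differences was not tested. Of the 267 calls, 176 were lost without control replicate 1, 162 without control replicate 2, 107 without control replicate 3, 131, 116 and 3 without Sin3a knockdown replicates 1, 2 and 3, and 77, 75 and 21 without those of the Fam60a knockdown. In 3 genes not called with 9 libraries the log2 fold change had the opposite sign and was called elsewhere. Leaving out 1 library gave Sap130 -0.348 to 0.235, Trim33 -0.239 to 0.213 and Smad7 -0.139 to 0.27. In voom and without replicate 3 of all groups Sap130 had 0.192 and 0.239, and Trim33 0.191 and 0.216. The lower depth of Sin3a knockdown replicate 3 limits low genes most, since 3 reads in it amount to 1.15 CPM.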

Other observations

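Alox5, Ptafr, Ltb4r2 and Pla2g4e were among the genes with the largest changes and are described singly, having been picked after their values were seen. Alox5, the lipoxygenase that starts leukotriene synthesis, measured 7.01, 7.98 and 9.34 CPM in the Sin3a knockdown and 0.326, 1.01 and 1.49 CPM in the controls (log2 fold change 3.15 ± 0.46, edgeR adjusted p = 0.00897, called in 7 of the 9 fits that left out 1 library). Ptafr, the receptor of platelet-activating factor, measured 14, 10.0 and 5.69 CPM in the knockdown and 0.326, 1.16 and 1.04 CPM in the controls (log2 fold change 3.45 ± 0.62, adjusted p = 0.0158, called in 6 of the 9 fits). The leukotriene B4 receptor gene Ltb4r2 measured 1.68, 3.16 and 12.2 CPM in the knockdown and 0.652, 0.289 and 0.447 CPM in the controls (log2 fold change 3.29 ± 0.78, adjusted p = 0.0358, or 2.25 without Sin3a knockdown replicate 3, called in 2 of the 9 fits). The phospholipase gene Pla2g4e fell, with 1.83, 0.743 and 0.406 CPM in the knockdown and 19.5, 18.6 and 14.7 CPM in the controls (log2 fold change -4.12 ± 0.41, adjusted p = 0.00414, called in 9 of the 9 fits).

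The imprinted neighbours Peg3 and Usp29, which start close together and are both expressed from the paternal allele, moved in opposite directions. Peg3 measured 242, 276 and 316 CPM in the Sin3a knockdown and 97.9, 112 and 128 CPM in the controls, while Usp29 measured 0.915, 1.11 and 0.406 CPM in the knockdown and 4.56, 3.90 and 2.98 CPM in the controls (log2 fold changes 1.30 ± 0.10 and -2.16 ± 0.32, adjusted p = 0.00258 and 0.00874). The groups of neither gene overlapped. The call of Peg3 held in all 9 fits, and that of Usp29 in 6, lost without Sin3a knockdown replicate 1 and control replicates 1 and 2 (adjusted p up to 0.0749).

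Fallen genes were most frequent among promoters poor in CpG. In 5 classes of tested genes by the observed over expected CpG of the promoter window, the share that fell was 19.6% in the class up to 0.49 and 7.02, 5.27, 4.11 and 3.61% in the next 4, whereas the share that rose was 5.45, 8.45, 6.79, 7.01 and 5.69%. Without Sin3a knockdown replicate 3 the share that fell was 38.6% in the lowest class and 22.7, 19.7, 17.7 and 18.2% in the others. The level moves with these classes, since the median control level was 14.4 CPM in the lowest class and 79.4 CPM in the highest. Among genes of 2 to 10 CPM in the controls the median CpG value was 0.37 for fallen, 0.71 for risen and 0.59 for genes not called, and over 50 CPM it was 0.72, 0.81 and 0.83. These are descriptions with no test, and the part of expression level in them was not tested further.

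Calls also varied with the exon GC content of genes. Of 5 classes, the class lowest in GC had 3.5% risen and 2.72% fallen genes, and the class highest in GC 6.58% and 12.9%. Without Sin3a knockdown replicate 3 these shares were 31.2% and 10.7% in the lowest class and 15.5% and 38.8% in the highest. With the GC correction and all libraries they were 8.53% and 6.26% in the lowest class and 14.7% and 17.6% in the highest.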
